A study of Mus musculus with 6 samples.

Results

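The round spermatid small RNA libraries held 116 endogenous siRNA (endo-siRNA) entries of 20 nt or less with at least 15 counts over the 6 libraries, out of 784 endo-siRNA entries and 45932 entries in all. They were chosen by the endo-siRNA class in their names, by a length of 20 nt or less or of 24 nt or more, and by their summed counts, which range from 15 to 6521 with a median of 41. The counts that chose them are a description and support nothing else. No endo-siRNA entry in the table was 24 nt or longer, so the entries outside the usual Dicer length all lay on the short side. Of the 116, 62 were 19 nt long and 54 were 20 nt long, and the endo-siRNA entries as a whole span 19 to 23 nt. These are lengths of reference entries, and the lengths of the sequenced reads were not measured. The 169 endo-siRNA entries of 21 to 23 nt with at least 15 counts serve as the comparison within the class.

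Round spermatids are the haploid germ cells that follow meiosis. They were purified from testes of C57BL/6 mice at postnatal day 21, from a global Miwi knockout (KO) line and from wild-type (WT) mice, with 3 small RNA libraries of each genotype. The labels do not say that replicate numbers are separate animals, so the p-values below rest on the variation among these libraries alone, part or all of it possibly technical. The mRNA of Miwi (Piwil1) was not analysed here, so the genotype labels were not checked against it. In bulk libraries, fewer cells of a type and less RNA per cell cannot be told apart.

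Endo-siRNAs are cut by Dicer from long double-stranded precursors, mostly to a narrow band of lengths, and are loaded into Argonaute proteins. Pachytene piRNAs are made without Dicer from long single-stranded precursors and are held by the PIWI proteins MILI and MIWI, MIWI carrying the longer ones. PIWI proteins that slice RNA are known to leave short by-products at piRNA loci. A length below the Dicer band therefore leaves the origin of an entry's reads unsettled, and the question here was which of these entries resembled piRNAs in how they differed between the genotypes.

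Levels are given as counts per 100000 miRNA counts of the same library, since most miRNAs are made by Dicer and none needs a PIWI protein. The miRNA totals ran from 146487 to 243655 counts in KO libraries and from 179761 to 246030 in WT libraries. The small RNA table totals ran from 747443 to 1335013 in KO and from 3114845 to 5037232 in WT. A few abundant miRNAs make up a sizeable part of the scale, among them miR-34b-5p, miR-34c-5p and miR-16-5p. The mature sequences of miR-34b-5p and miR-16-5p, from RefSeq on GRCm38.p6, show what a Dicer product of full length looks like, for contrast with the shorter entries described here. Capitals mark the seed, bases 2 to 8.
mmu-miR-34b-5p: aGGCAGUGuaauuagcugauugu
mmu-miR-16-5p: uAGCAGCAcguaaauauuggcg
The first lies at 9:51103610-51103632 on the minus strand, is 23 nt long and made up 20.3% of miRNA counts on average. The second has a locus at 3:69009918-69009939 on the plus strand, is 22 nt long and made up 6.82%. For miR-34c-5p, which made up 7.42%, no sequence was found in the reference used. The endo-siRNA entries are given by name only, without sequence or position.

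Libraries differed in structural RNA. The replicate 3 libraries were the richest of their genotype in snoRNA, with 3087 counts per 100000 miRNA counts in KO replicate 3 against 677 to 937 in the other KO libraries, and 8826 in WT replicate 3 against 2177 to 3291 in the other WT libraries. Counts of tRNA entries were 1228 to 2032 in KO and 6036 to 10087 in WT. The 3 germ cell markers miR-34b-5p, miR-34c-5p and miR-449a-5p were all detected, and their sum was 29573 to 33510 in KO and 27437 to 29109 in WT. Of the sums of marker miRNAs of other testis cells, that of smooth muscle or peritubular cells was 1444 to 1914 in KO and 2022 to 2948 in WT, and that of erythroid cells 2.87 to 4.78 in KO and 7.23 to 9.69 in WT. The sums overlapped between genotypes for Sertoli or gonadal cells (171 to 225 in KO, 190 to 236 in WT), endothelium (612 to 684 and 672 to 723) and leukocytes (160 to 183 and 130 to 171). The part of structural RNA and of other cell types in the results was not tested.

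The 19 nt entries were mostly lower in KO relative to miRNAs, and the 20 nt entries went both ways. Of the 62 entries of 19 nt, 39 had all 3 KO levels below all 3 WT levels, 2 had them above, and 21 overlapped. Of the 54 entries of 20 nt, 17 were below, 16 were above and 21 overlapped. Over the whole table, where piRNAs make up most entries, 79.4% of the entries with at least 15 counts did not overlap, and 73.9% of the 33432 entries with at least 15 counts were below and 5.49% were above. The 62.9% of 19 nt entries that were below is thus under the share of the whole table. The 29.6% of 20 nt entries that were above is over it.

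**Figure D1:**
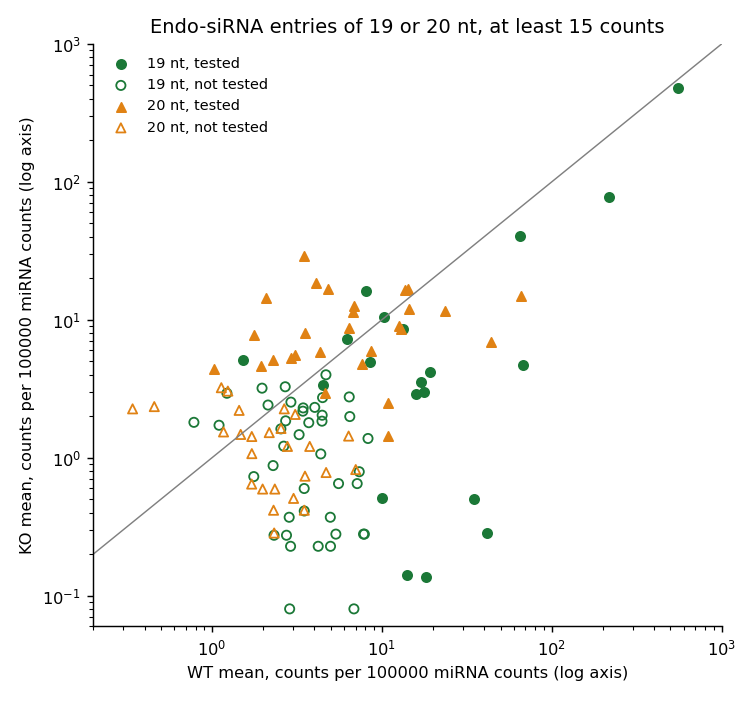
Mean level in the 3 KO libraries against mean level in the 3 WT libraries for all 116 endo-siRNA entries of 19 or 20 nt, in counts per 100000 miRNA counts on log axes, with filled points for the 48 entries tested and open points for the 68 not tested. The diagonal marks equality, and the 2 entries with no KO count are placed at the bottom. Most 19 nt entries lie on the WT side of equality, and the 20 nt entries lie on both sides.

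A test was fitted for 48 of the 116 entries, those that passed a filter on low counts. With edgeR's quasi-likelihood test over the 24682 entries of the table that passed, 29 of the 48 reached an adjusted p under 0.05, beside 83.0% of all entries tested. Of these, 12 were higher in KO and 17 were lower, beside 6.30% higher and 76.7% lower over all entries tested. Of the 20 tested entries of 19 nt, 2 were higher, 12 were lower and 6 did not pass. Of the 28 tested entries of 20 nt, 10 were higher, 5 were lower and 13 did not pass. The median log2 change of KO over WT was -1.82 for the 19 nt entries, 0.44 for the 20 nt entries and -2.14 for all entries tested. An entry high in WT only could pass the filter through WT, and an entry high in KO only could pass through KO. Fewer counts were needed through KO, as its libraries had smaller totals, so the tested entries can lean toward those high in KO. These counts and medians describe the tested entries and not all 116. With whole-table TMM factors in place of miRNA totals, the median of all entries tested moved up by 1.75 on the log2 scale and the split of the 48 entries became 33 higher and 8 lower, beside 76.6% called over the table, 31.9% higher and 44.7% lower.

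The other endo-siRNA lengths give the setting for these values. The median log2 change was -0.35 over 19 tested entries of 21 nt, 0.77 over 35 of 22 nt and 1.17 over 18 of 23 nt. Of these 72 entries of 21 to 23 nt, 34 were higher in KO, 13 were lower and 25 did not pass. The lowest median among the 5 lengths was that of 19 nt and the highest that of 23 nt.

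**Figure D2:**
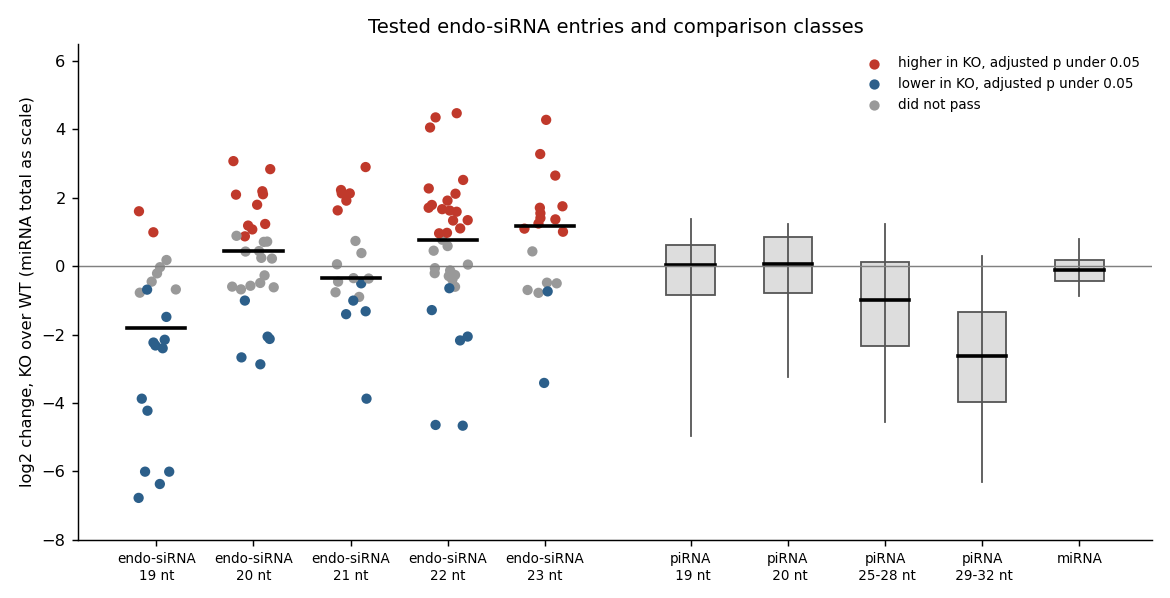
The log2 change of KO over WT on the miRNA scale for each tested endo-siRNA entry, by length, beside the comparison classes, for which boxes span the quartiles, whiskers the 5th to 95th percentiles, and bars mark medians. Colours mark entries higher in KO, lower in KO or past no threshold by edgeR's adjusted p. The 19 nt entries centre on -1.82 and those of 20 nt on 0.44.

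The most abundant 19 nt entry overlapped between the genotypes. Sp527 (19 nt) stood at 489, 466 and 487 counts per 100000 miRNA counts in the KO libraries and at 528, 482 and 655 in the WT libraries. KO replicates 1 and 3 lay above WT replicate 2, and the means were 480 ± 12.8 in KO and 555 ± 89.7 in WT (SD, n = 3 each). Its log2 change of -0.21 ± 0.17 (SE) did not pass edgeR's test (adjusted p = 0.239), and its sign turned to 0.13 with TMM factors of the entries other than piRNAs and to 1.56 with those of the whole table. Sp527 made up 64.8 to 66.6% of the summed 19 nt level in KO and 39.9 to 43.7% in WT. On log2 change it sat at the 42.0 percentile of the tested miRNAs and at the 90.8 percentile of the annotated piRNAs of 29 to 32 nt.

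The next most abundant 19 nt entries were lower in KO on the miRNA scale. Sp392 (19 nt) stood at 84.3, 62.1 and 85.8 in KO and at 174, 194 and 284 in WT, with no overlap and its highest value in WT replicate 3, the library richest in snoRNA. Its log2 change was -1.48 ± 0.20 (edgeR adjusted p = 1.85e-08), and it turned to 0.30 with whole-table TMM factors, so its direction depends on the scale. T12 (19 nt) stood at 46.0, 38.9 and 36.9 in KO and at 60.1, 57.1 and 78.4 in WT. These groups did not overlap either, and the log2 change of T12 was -0.69 ± 0.21 (edgeR adjusted p = 0.00276) on miRNA totals, -0.34 with TMM factors of the entries other than piRNAs (adjusted p = 0.0974) and 1.08 with whole-table TMM factors.

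Several 19 nt entries were far lower in KO, and some of them were almost confined to the WT libraries by count. Sp310 (19 nt) stood at 5.96, 6.14 and 2.05 in KO and at 66.2, 73.5 and 62.2 in WT, a log2 change of -3.87 ± 0.30 (edgeR adjusted p = 2.87e-14). Every WT library stood far above every KO library, with 14, 9 and 5 counts in KO against 119, 144 and 153 in WT. Sp13 (19 nt) had 2, 0 and 0 counts across the KO libraries against 76, 87 and 94 across the WT libraries, a pooled ratio of 129-fold with a 95% exact counting interval of 35.4 to 1072 (edgeR adjusted p = 7.54e-15). Sp40 (19 nt) had 0, 1 and 2 counts in KO against 72, 73 and 68 in WT, a ratio of 71.4-fold (24.1 to 349, edgeR adjusted p = 1.04e-13). The intervals cover counting error only, and in Sp13 and Sp40 the WT libraries lay close together while KO held at most 2 counts per library.

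Sp146 (19 nt) had 0, 0 and 1 counts in KO against 36, 42 and 33 in WT, a ratio of 112-fold (19.6 to 4445, edgeR adjusted p = 3.05e-11). Sp46 (19 nt) had 1, 0 and 0 counts in KO against 28, 22 and 38 in WT, a ratio of 88.4-fold (15.5 to 3532, edgeR adjusted p = 1.81e-10). T60 (19 nt) had 1 count in each KO library and 18, 16 and 29 in WT, a ratio of 21.1-fold (6.90 to 105.1, edgeR adjusted p = 1.13e-08). These 3 and Sp13, Sp40 and Sp310 were the 6 largest falls past the threshold among the 116 entries, and all 6 were 19 nt long. Falls of such size were not limited to 19 nt. Sp324 and Sp395 (both 22 nt) had log2 changes of -4.66 and -4.64, beyond T60 (-4.23) and Sp310 (-3.87). Sp169 (21 nt) stood at -3.87. Of tested entries of 21 to 23 nt, 34 were higher and 13 lower, beside 6.30% and 76.7% of all entries tested. The 4 other 19 nt entries that fell were Sp170, T49, T59 and Sp289, with log2 changes of -2.15 to -2.40. None of the 4 overlapped between genotypes, and all 4 lost their call with whole-table TMM factors, with log2 changes of -0.40 to -0.64 and edgeR adjusted p from 0.131 to 0.337.

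A further pair of 19 nt entries had no count in any KO library and was not tested. Sp145 had 14, 13 and 15 counts in the WT libraries, which makes it at least 14.1-fold lower in KO with a floor of 3 counts over the group. Sp168 had 5, 5 and 8, at least 6.03-fold lower.

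Fewer of the tested 20 nt entries were lower in KO, 5 of 28, beside 76.7% of all entries tested. Without the filter, which can favour entries high in KO, 15 of the 54 were called lower, beside 62.9% over the table. T66 (20 nt) stood at 14.5, 13.7 and 16.4 in KO and at 61.7, 69.9 and 65.0 in WT, a log2 change of -2.13 ± 0.23 (edgeR adjusted p = 1.40e-10). T16 (20 nt) stood at 8.52, 6.83 and 5.34 in KO and at 41.7, 46.9 and 43.5 in WT, a log2 change of -2.67 ± 0.29 (edgeR adjusted p = 1.03e-10). Both had tight, separate genotypes, and the call of T66 was lost with whole-table TMM factors (log2 change -0.37, edgeR adjusted p = 0.112). Sp548 (20 nt) stood at 11.5, 10.2 and 13.1 in KO and at 26.1, 17.3 and 27.2 in WT, with no overlap. Its log2 change was -1.005 ± 0.29 on miRNA totals (edgeR adjusted p = 0.00185) and turned to 0.76 with whole-table TMM factors. The remaining falls of 20 nt were T18, with 9, 3 and 4 counts in KO against 22, 21 and 24 in WT and a log2 change of -2.06, and Sp383, with 4, 2 and 3 against 19, 20 and 29 and a log2 change of -2.87. With whole-table TMM factors the log2 change of T18 was -0.31 and did not pass (edgeR adjusted p = 0.506). That of Sp383 was -1.14 and passed (edgeR adjusted p = 0.0278), but with DESeq2's own size factors it was -1.03 and did not pass (DESeq2 adjusted p = 0.146).

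The 6 largest rises were all 20 nt entries of the Sp series, the names of which begin with Sp rather than T. Sp317 (20 nt) stood at 34.5, 29.4 and 23.4 in KO and at 3.89, 4.08 and 2.44 in WT, a log2 change of 3.07 ± 0.35 (edgeR adjusted p = 4.33e-10). Sp173 (20 nt) stood at 17.9, 15.02 and 10.3 in KO and at 3.34, 2.04 and 0.813 in WT, a log2 change of 2.84 ± 0.45 (edgeR adjusted p = 4.48e-07). Both had every KO library above every WT library. Sp322 (20 nt) stood at 26.4, 15.7 and 13.5 in KO and at 3.89, 5.61 and 2.85 in WT, a log2 change of 2.19 ± 0.38 (edgeR adjusted p = 2.31e-06). KO replicate 1 was its highest library by a wide margin, and its genotypes also stood apart.

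Sp594 (20 nt) stood at 9.80, 6.83 and 6.57 in KO and at 1.11, 2.55 and 1.63 in WT, a log2 change of 2.11 ± 0.46 (edgeR adjusted p = 7.02e-05). Sp353 (20 nt) had few counts, 9, 7 and 11 in KO and 3, 2 and 1 in WT, and a log2 change of 2.09 ± 0.55 (edgeR adjusted p = 0.000746). Sp217 (20 nt) stood at 18.3, 13.7 and 18.1 in KO and at 3.89, 5.61 and 4.88 in WT, a log2 change of 1.80 ± 0.35 (edgeR adjusted p = 1.58e-05). All 3 kept the genotypes apart. The 6 largest rises passed the filter on low counts through their KO libraries alone. The 6 largest falls passed it only with their WT libraries. The p-values of these rises and falls thus describe entries kept through the group where they are high, and give no further support. The only 19 nt entries that rose past the threshold were Sp592 and Sp154, at log2 changes of 0.99 and 1.61. Among the most abundant 20 nt entries, T22 and Sp386 overlapped between genotypes, with 16.8 in KO and 14.3 in WT for T22 (edgeR adjusted p = 0.450) and 16.5 and 13.6 for Sp386 (edgeR adjusted p = 0.521). With whole-table TMM factors both passed as higher in KO, at log2 changes of 2.01 and 1.99. With TMM factors of the entries other than piRNAs, T22 alone of this pair passed (log2 change 0.60, edgeR adjusted p = 0.0453).

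**Figure D3:**
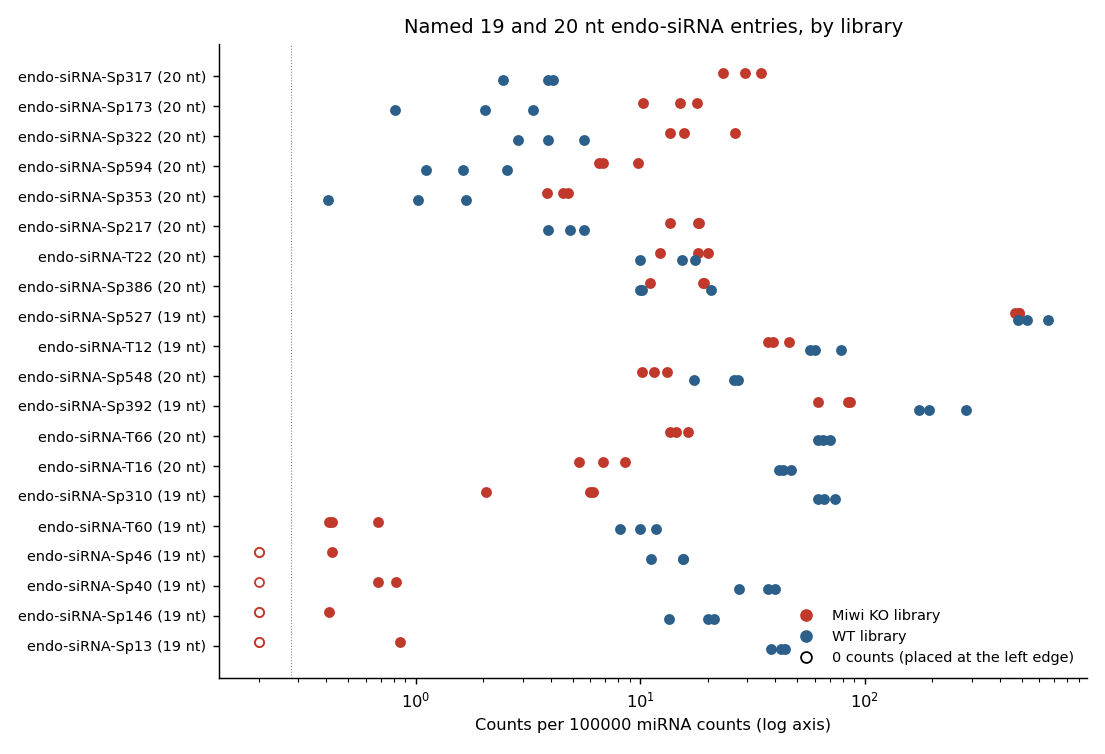
Levels of the named 19 and 20 nt endo-siRNA entries in each of the 3 KO and 3 WT libraries, in counts per 100000 miRNA counts on a log axis, with open points at the left edge for libraries with 0 counts. Sp13, Sp40, Sp146, Sp46 and T60 hold 0 to 2 counts in every KO library, while Sp317 and Sp173 lie higher in all 3 KO libraries.

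The names split by series and length among the tested entries, which can lean toward those high in KO. In the Sp series, 14 entries of 19 nt were tested, of which 2 rose and 8 fell, and 19 of 20 nt, of which 10 rose and 2 fell. In the T series, 6 entries of 19 nt were tested, of which 4 fell and 0 rose, and 9 of 20 nt, of which 3 fell and 0 rose. Over all entries tested, 6.30% rose and 76.7% fell. What the series letters stand for is not given in the sources used here. Among tested entries of 21 to 23 nt, rises also outnumbered falls in the Sp series, and falls outnumbered rises in the T series. The split was thus not particular to the shorter entries. Whether the series differ was not tested.

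The 68 entries that were not tested had 15 to 60 counts each, with a median of 27. Of these, 35 had all KO levels below all WT levels, 4 had them above and 29 overlapped, beside 73.9% below and 5.49% above over the whole table. At 19 nt the counts were 25 below, 0 above and 17 overlapping. At 20 nt they were 10 below, 4 above and 12 overlapping. Without the filter, edgeR called 13 of the 116 higher and 48 lower, 33 of the latter at 19 nt and 15 at 20 nt, beside 66.8% called over the 40582 entries with a count, 3.87% higher and 62.9% lower.

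Just inside the count threshold, 9 entries had 15 to 17 counts, with a median of 4 counts in KO and 11 in WT. Just outside it, 19 entries had 12 to 14 counts, with a median of 5 in KO and 9 in WT. At the length limit, the highest entry just inside was T66 (20 nt). The highest just outside was T26 (21 nt), with a KO mean of 73.8 ± 4.16 and a WT mean of 93.9 ± 18.3 (SD, n = 3 each), a log2 change of -0.35 that did not pass edgeR's test (adjusted p = 0.0937). The highest entry of 23 nt, Sp190, stood at 98.7 ± 18.8 in KO against 5.16 ± 1.85 in WT, with a log2 change of 4.28 ± 0.28 (edgeR adjusted p = 1.52e-16).

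Summed over entries, the 19 nt level was 754, 711 and 731 counts per 100000 miRNA counts in the KO libraries against 1237, 1210 and 1499 in the WT libraries. The WT mean was 1.80 times the KO mean, 1315 ± 160 against 732 ± 21.4 (SD, n = 3 each), and the direction turned when the table total replaced the miRNA total. Without Sp527 the 19 nt sums were 252 ± 11.9 in KO and 760 ± 73.2 in WT, a 3.02-fold difference, larger than the ratio with this entry included. The 20 nt sums were 341, 300.4 and 282 in KO and 338, 371 and 387 in WT, which overlap, with a ratio of means of 1.19. The summed level of the endo-siRNA entries of 21 to 23 nt was 1315 ± 95.5 in KO and 1069 ± 117 in WT, higher in all 3 KO libraries. No test was made on sums over chosen entries.

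The deposited piRNA cluster table, in which entries are named by cluster and position, was cut by length in the same way. Its 19 nt entries summed to 4037, 4225 and 3794 in KO and to 10849, 11425 and 11986 in WT, 2.84 times higher in WT. Its 20 nt entries summed to 6330, 6107 and 5536 in KO and to 7920, 8210 and 8718 in WT, 1.38 times higher. The corresponding ratios were 1.20 at 21 nt, 0.920 at 22 nt, 0.937 at 23 nt, 0.881 at 25 to 28 nt and 13.0 at 29 to 32 nt. The WT excess in the cluster table was thus larger at 19 nt than at any length from 20 to 28 nt listed here, and it was largest at 29 to 32 nt, the size range that MIWI is known to carry. Endo-siRNA entries, counted over all entries of a length, gave ratios of 1.81 at 19 nt, 1.21 at 20 nt, 0.980 at 21 nt, 0.903 at 22 nt and 0.592 at 23 nt.

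Entry by entry, the shares ran close at 19 nt. Of 716 cluster table entries of 19 nt with at least 15 counts, 62.7% were lower in all KO libraries than in all WT libraries and 7.54% were higher, against 62.9% and 3.23% of the 62 endo-siRNA entries. At 20 nt, 34.4% of 544 cluster table entries were lower and 15.8% higher, against 31.5% and 29.6% of the 54 endo-siRNA entries. Over the whole cluster table, 63.0% of the 221481 entries with at least 15 counts were lower and 12.9% higher. For annotated piRNAs, 39.6% of 96 entries were lower and 11.5% higher at 19 nt, and 29.5% of 61 were lower and 18.03% higher at 20 nt. The miRNA entries of the same lengths summed to a WT over KO ratio of 1.08 at 19 nt and 0.897 at 20 nt. These shares were set side by side, and their differences were not tested.

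**Figure D4:**
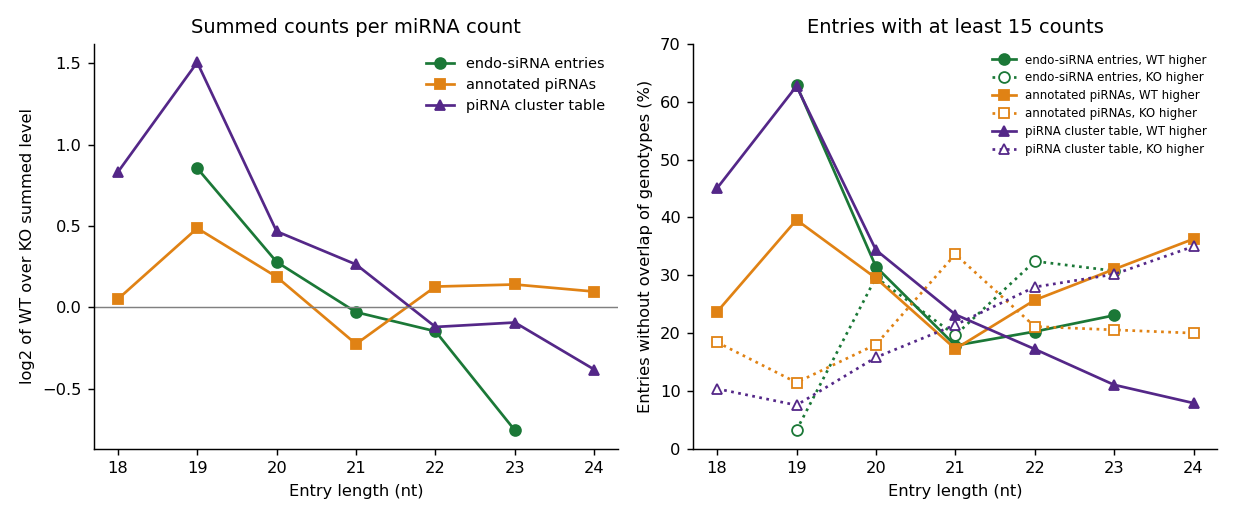
By entry length in nt, the log2 of the WT over KO summed level (left) and the percentage of entries with at least 15 counts whose genotypes do not overlap (right), for endo-siRNA entries and the comparison classes, on the miRNA scale. In both panels the WT excess of endo-siRNA and cluster table entries is larger at 19 nt than at 20 nt.

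Each tested entry was placed in the spread of log2 changes of the other classes. From the 5th to the 95th percentile, miRNAs ran from -0.87 to 0.79, annotated piRNAs of 29 to 32 nt from -6.30 to 0.29, and endo-siRNAs of 21 to 23 nt from -2.73 to 3.63. Of the 20 tested entries of 19 nt, 11 fell below the miRNA range, of which 9 lay within that of piRNAs of 29 to 32 nt and 2 below it. The 2 were Sp13 and Sp146, with 2 and 1 KO counts in all, so their side of that limit is only loosely set. Of the other tested entries of 19 nt, 7 lay within the miRNA range and 2 above it. Of the 28 tested entries of 20 nt, 5 lay below the miRNA range, all within that of the long piRNAs, 12 lay within it and 11 lay above it. The 11 were also above the 95th percentile of the long piRNAs. Structural RNA classes fell on this scale too. Tested tRNA entries ran from -4.69 to -0.055, with 64.2% lower in KO. That range held 12 of the 19 nt and 11 of the 20 nt entries, against 16 and 13 for the long piRNAs. Of tested snoRNA entries, 98.7% were lower, with a median of -1.81, and their range held 5 and 4. Lying within the long piRNA range thus does not by itself set an entry apart from tRNA entries. Annotated piRNAs of 19 nt, of which 41 were tested, ran from -4.98 to 1.38, and those of 20 nt, of which 31 were tested, from -3.24 to 1.25. Of the 19 nt endo-siRNA entries, 15 lay within the range of piRNAs of their own length, 4 below and 1 above, and of the 20 nt entries 22 lay within it, 0 below and 6 above.

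Of the 17 falls, those nearest the middle of the annotated piRNAs of 29 to 32 nt in log2 change were T16 at the 49.1 percentile, T49 at the 54.3, Sp383 at the 45.2 and Sp289 at the 56.0. Sp170, T59, T66 and T18 lay at the 57.8, 59.3, 59.7 and 61.1 percentiles, and Sp310 and T60 at the 26.7 and 21.4. The more abundant Sp392, Sp548 and T12 fell less than most of those piRNAs, at the 72.5, 80.8 and 85.4 percentiles. Sp13, Sp40, Sp146 and Sp46 fell more than most of those piRNAs, at the 3.62, 6.23, 4.80 and 6.23 percentiles. They held 2, 3, 1 and 1 KO counts in all, so the places of the 4 are only loosely set. These 4, with Sp310 and T60, lay below every tested miRNA. Among annotated piRNAs of their own length, T16 and Sp383 lay at the 9.68 percentile and T49 and Sp289 at the 17.1. Against endo-siRNAs of 21 to 23 nt, 6 of the 20 entries of 19 nt and 1 of the 28 of 20 nt lay below the 5th percentile, so most of the shorter entries stayed within the spread of endo-siRNAs of Dicer length. The rises went the other way, with Sp317 at the 99.9 percentile of the long piRNAs and above all tested annotated piRNAs of its own length.

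If all reads of an endo-siRNA entry had also been counted under a single piRNA entry of the same sequence, both would hold equal counts. Among the 50 entries with at least 50 counts, none had the same count in all 6 libraries as an entry of the piRNA cluster table or as an annotated piRNA. When each library could differ by up to 10% or 2 counts, 37 of the 50 had at least 1 such piRNA entry. The number varied widely between entries, also at low counts. In the cluster table alone, Sp13 had 51 of them, 50 of which were 29 to 32 nt long, Sp40 had 31, of which 30 were, and T60 had 424, of which 394 were. Among annotated piRNAs the same 3 had 8, 2 and 34. Cluster table entries with the same summed count as Sp13, Sp40 and T60 numbered 42, 66 and 810. Of the 139479 cluster table entries with at least 15 counts and all KO levels below all WT levels, 121288 were 29 to 32 nt long. The lengths of the matches thus tell little beyond the low KO counts. Sp44, with 57 counts in all, had none in either. Sp527, Sp392, T12 and Sp310 also had none in either, and Sp317 had 1, a cluster table entry of 24 nt or less. Whether reads of these entries are pieces of piRNAs was not tested, since the entries were compared by counts and lengths and not by sequence or position.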

How the data were processed

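Small RNA was sequenced from purified round spermatids of 3 KO and 3 WT samples. The authors deposited raw counts, in whole reads per reference entry and library, made with featureCounts v1.5.0-p2 per the file headers. The submitters' processing notes also name cutadapt, DESeq2 and the mm9 build. Neither the aligner nor how reads matching more than 1 entry were handled is given in the sources used here, so entries of near-identical sequence may share reads. Entry lengths were taken as the deposited length minus 20 nt, which matched 249 of 249 tRNA entries with a length in their name. That the endo-siRNA entries carry the same 20 nt was inferred.

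Members, lists and comparisons were chosen with earlier results of these data known. The whole small RNA table was fitted with edgeR 4.0.16 in R 4.3.3 (glmQLFit and glmQLFTest), with the miRNA total as library size, filterByExpr (minimum count 10, minimum total 15, on table totals) and Benjamini-Hochberg adjustment over 24682 entries, at 0.05. Since KO tables were shallower, an entry needs fewer counts to pass through KO. The script was tested on simulated data. Named were the 12 members of highest mean level, up to 6 rises and 6 falls of largest log2 change past the threshold without overlap, and entries at the limits of count and length. The 4 other 19 nt falls, the other 20 nt falls and the 19 nt rises were named after their values were seen. So were Sp123, Sp251, Sp268, Sp44, Sp145, Sp168, Sp169, Sp324 and Sp395. Alternatives were other scalings, DESeq2 1.42.0, other filters and member limits, the replicate number as a block, and leaving out libraries. Leaving out both replicate 3 libraries, and the 2 highest members, was chosen after seeing the data.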

Additional observations from a re-analysis of the deposited data

How the results depend on the processing

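The scale changed directions. With whole-table TMM factors, or with the table total, 33 members were higher and 8 lower (9 and 6 at 19 nt, 24 and 2 at 20 nt), and with DESeq2's own size factors 33 and 7 (10 and 6 at 19 nt, 23 and 1 at 20 nt), beside 7859 higher and 9641 lower of 24682 entries, 70.9% called. Under these 3 settings in that order, the log2 change turned to 1.56, 1.56 and 1.69 for Sp527, 0.30, 0.29 and 0.43 for Sp392, 1.08, 1.08 and 1.21 for T12, 0.76, 0.75 and 0.89 for Sp548, and 1.42, 1.42 and 1.55 for T26. On the table total, the summed log2 of KO over WT turned to 1.07 for all members, 0.92 at 19 nt and 1.51 at 20 nt. TMM factors of entries other than piRNAs gave 17 higher and 16 lower and turned Sp527 to 0.13. Over all 24682 entries that fit called 82.0%, 2537 higher and 17691 lower. Of 34 entries examined one by one (those named by rule, the other called members, T26 and Sp190), no other changed direction under these scalings.

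Without a filter 48 were lower (33 at 19 nt, 15 at 20 nt), as all 116 were then tested. The stricter filter left 20 tested, with 6 higher and 10 lower (1 and 6 at 19 nt, 5 higher at 20 nt). Over the 15180 entries tested with that filter, 85.0% were called, 1321 higher and 11589 lower. Leaving out 1 library gave 12 to 29 lower over all, with 29, 28 and 27 without KO replicates 1, 2 and 3 and 12, 13 and 13 without WT replicates 1, 2 and 3, as the number tested moved from 41 to 70. Over all entries tested in these fits, 79.0 to 80.4% were called, mostly as lower. At 19 nt the highest count was 21, without KO replicate 1 or 2, and 20 without KO replicate 3. At 20 nt it ran from 3, without any one WT library, to 8 without KO replicate 1. Keeping only lengths of 19 nt or less left 2 higher and a summed log2 of -0.85. The sum over all members was -0.69, and -1.01 without the highest member and -0.91 without the highest 2. The 19 nt sum was -1.60 and -1.64 without these. Allowing 10% or 2 counts raised the members with a piRNA entry of like counts from 0 to 37.

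TMM factors of the miRNAs (14 higher, 17 lower) and leaving out both replicate 3 libraries (14 and 17) changed no call among the 34. Over all entries tested, these fits called 81.3% and 79.7%, mostly as lower. The miRNA total without its top 3 miRNAs also gave 14 higher and 17 lower and changed no call among the 34. That fit called 82.8% of all entries tested, mostly as lower. DESeq2 with miRNA totals gave 9 higher and 17 lower, beside 79.1% of all entries called, mostly as lower. It ended the calls of Sp123, Sp251 and Sp268 as higher (DESeq2 adjusted p 0.0518, 0.128 and 0.108). The call of Sp251 was also lost without a filter (1.08, edgeR adjusted p = 0.0632). Each of the 3 also lost its call when single libraries were left out: Sp123 without KO replicate 3 or WT replicate 1 (log2 change 0.84 and 0.81), Sp251 without KO replicate 1, 2 or 3 or WT replicate 1 or 2 (0.86 to 1.17), and Sp268 without KO replicate 1 or WT replicate 1 or 3 (0.97 to 1.16). No other call among the 34 was lost in this way where a fit was possible. Same-numbered libraries correlated at 0.031, 0.104 and 0.15 in their deviations, each best with its own number, which is not a pairing by the labels. The replicate block gave 12 higher and 17 lower, beside 83.4% of all entries called, mostly as lower. It changed no call among the 34. Low depth limits many single entries, as 66 of the 116 members have under 50 counts.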
